A study of Mus musculus with 8 samples.

Results

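The respiratory chain genes are the genes for the machinery that turns food energy into ATP in mitochondria. They were taken by symbol from the mRNA table: every row starting with mt-, Nduf, Uqcr, Cox4, Cox5, Cox6, Cox7, Cox8, Atp5 or Sdh, with the muscle form Cox6a2 left out. The rule found 112 of 22298 genes, of which 13 lie in the mitochondrial genome and 99 in the nuclear genome. Of the nuclear genes, 84 encode subunits and 15 are assembly factors, pseudogene symbols or the supercomplex factor Cox7a2l. The symbol Atp5o had 2 rows, and both were kept. The rule used names alone and no measured value.

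B cells were sorted from the bone marrow of wild type female C57BL/6 mice aged 8 to 10 weeks, with the cells of 3 mice pooled into each sample. The 4 stages were pro-B (B220+IgM-CD43+), pre-B (B220+IgM-CD43-), immature B (B220+IgM+CD43-) and mature B cells (B220hi IgM+CD43-). There was 1 library per stage, so no difference could be set against a replicate and no test was run. Intervals given with ratios are 95% intervals for counting error only, and they say nothing of the spread between mice or preparations.

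All complexes of the chain but the second hold subunits from both genomes. Complex I (NADH dehydrogenase), complex III (cytochrome bc1) and complex IV (cytochrome c oxidase) pump protons, and complex V (ATP synthase) uses the proton gradient to make ATP. Complex II (succinate dehydrogenase), which also works in the citric acid cycle, is built from nuclear genes alone. The mitochondrial genome is copied into long transcripts of both strands that are cut into separate RNAs. mt-Nd6 is the lone protein gene read from the opposite strand, while all the other protein genes share a strand. Each nuclear subunit is made from its own gene, so the balance of the 2 genomes is set by separate transcription machineries.

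The mRNA table held 867920 counts in the pro-B library, 240231 in pre-B, 223495 in immature B and 849350 in mature B. The lncRNA table ran between 2765507 and 3469757 counts, and the mRNA table made up 23.7%, 6.48%, 6.48% and 23.5% of both tables together. Levels are therefore given as counts, as CPM (the count scaled to the mRNA column total) and as the authors' FPKM. FPKM adjusts for length, and its library total was not the mRNA column total. For mt-Cytb, pre-B against pro-B was at 1.05 times in CPM, 0.276 times in FPKM and 0.292 times in counts. In the same comparison the mRNA total was at 0.277 times and the total of both tables at 1.01 times. Which total lay under the FPKM was not tested. Pro-B and mature B had nearly equal totals, and there the scales gave the same directions for the groups below. Between either of them and the pre-B or immature B library, the direction of the nuclear and of the mitochondrial sum depended on the scale, though not that of every complex or gene. The sorting labels were checked against markers. Dntt, the terminal transferase of pro-B cells, had 845 counts in pro-B and 0 in the other libraries, and the IgE receptor gene Fcer2a had 358 in mature B and 0 elsewhere. Rag1, which cuts the immunoglobulin genes and served as a pre-B marker, was higher in the pro-B library (797 counts) than in the pre-B library (89.4). The other pre-B markers had 95 and 76 counts (Rag2), 59 and 20 (Il2ra) and 158 and 70.8 (Vpreb3) in pro-B and pre-B. They differed less than the mRNA totals, so in CPM they were higher in pre-B. All 4 pre-B markers summed to 1278 CPM in pro-B and 1066 in pre-B. The 4 immature B markers summed to 4337, 7530, 9504 and 5087 CPM, though Cd93 among them was highest in pro-B (372 counts). The T and NK cell markers summed to 178 counts in pro-B, 0 in pre-B and immature B, and 5 in mature B, with Gzma at 106 in pro-B and Cd3e at 0 there. Of 6 myeloid markers 5 were above 0 in each library, with Csf1r at 0 in all, and their sum ran from 790 to 1049 CPM. The 6 erythroid markers summed to 429, 395, 266 and 223 CPM and the 5 plasma cell markers to 479, 560, 443 and 181 CPM. The part of these cells in the results below was not tested. In such bulk samples fewer cells of a type and less RNA per cell cannot be told apart.

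From pro-B to mature B, the nuclear and the mitochondrial genes of the chain went opposite ways. The nuclear subunits together were at 0.646 times their pro-B level in mature B cells (interval 0.596 to 0.701) in CPM, at 0.633 times in counts and at 0.652 times in FPKM. The mitochondrial genes were at 1.15 times (1.12 to 1.18) in CPM, 1.13 times in counts and 1.12 times in FPKM. The nuclear genes of the rule held 3410 counts in pro-B, 1102 in pre-B, 912 in immature B and 2179 in mature B. This was 0.393%, 0.459%, 0.408% and 0.257% of all mRNA counts, so the mature B library had the lowest share. The mitochondrial genes held 25185, 10541, 9703 and 28373 counts, or 2.90%, 4.39%, 4.34% and 3.34%.

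The number of mitochondrial counts per nuclear count went from 7.39 in pro-B to 9.56 in pre-B, 10.6 in immature B and 13.02 in mature B. This ratio needs no library total, since both terms come from the same library. Much of the first step came from mt-Nd6. Without it the ratios were 6.54, 7.02, 7.82 and 11.8, so that pro-B and pre-B lay closer together and the largest step lay between immature B and mature B. Leaving out mt-Nd3 to mt-Nd6, a choice made after seeing the data, turned the log2 step from pro-B to pre-B from 0.37 to -0.11. The step from immature B to mature B depended on which gene was left out. Without mt-Co1, the mitochondrial gene with the most counts, its log2 value went from 0.29 to -0.03, and without mt-Nd6 to 0.59. Leaving out both together was not tried. The step from pro-B to mature B, 0.82 on the log2 scale, stayed between 0.78 and 0.85 under these choices, without the assembly factors and in FPKM.

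**Figure D1:**
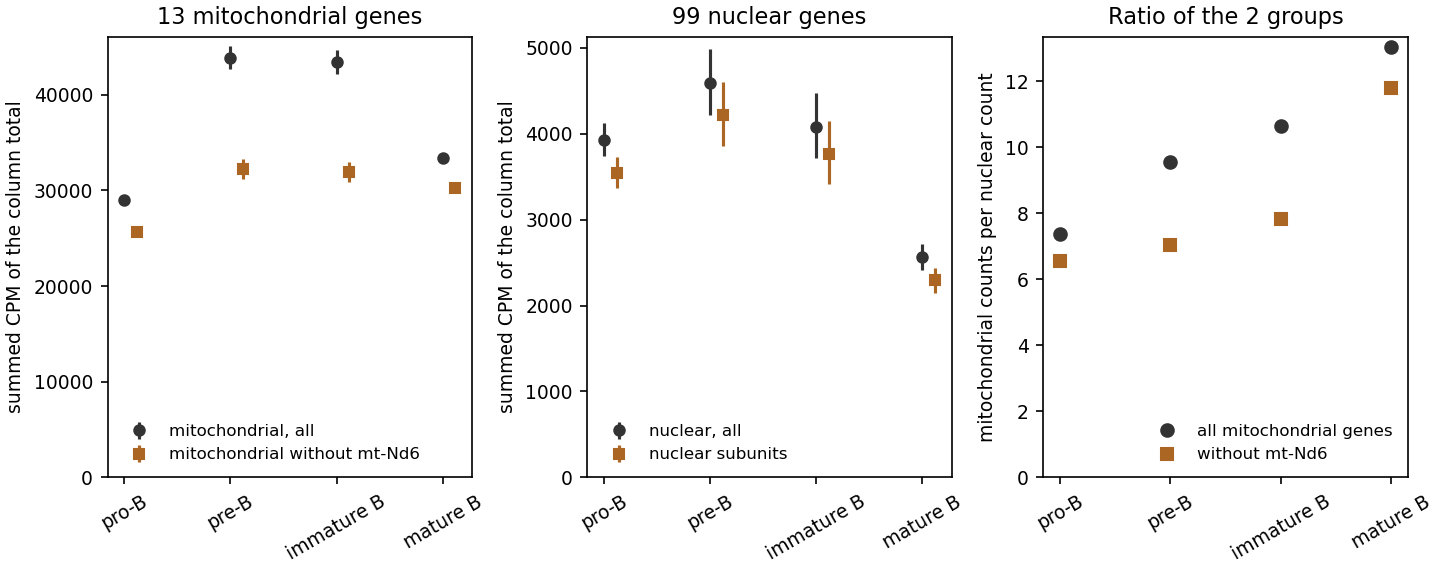
Summed CPM of the 13 mitochondrial genes (left) and of the 99 nuclear genes (middle), and mitochondrial counts per nuclear count (right), in the 4 libraries. Points are single libraries, and bars in the left and middle panels are 95% intervals for counting error. The nuclear sum is lowest in mature B, and the ratio is highest there with and without mt-Nd6 (13.02 and 11.8).

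For the nuclear genes, 31 of 99 had a mean of at least 40 CPM over the libraries, and a gene was called where its CPM differed at least 2-fold between 2 libraries. Because the level was a mean, a gene could reach it through the libraries in which it was high. The shares over all genes were taken under the same rule. Of the 99, 12 were at 0 in every library and 66 were above 0 in all, beside 7569 and 7957 of all 22298 genes. In mature B against pro-B, 7 of the 31 were called lower, against 14.1% of the 5067 genes that reached this level, and 1 was called higher, against 10.5%. Their median log2 CPM ratio was -0.50, beside -0.07 over all genes. Below 0 were 27 of the 31, beside 2734 of the 5067 genes. A single one of them, Cox4i1, had its highest CPM in mature B, where 28.8% of all genes at this level had theirs.

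The 3 large subunits of the F1 part of ATP synthase, its catalytic head and central stalk, were lower in mature B. Atp5b, the beta subunit that carries the catalytic sites, had 438 counts in pro-B, 87 in pre-B, 74 in immature B and 269 in mature B. Its CPM in mature B was 0.628 times that in pro-B (0.5005 to 0.779). Atp5a1, the alpha subunit beside it, had 412, 73, 74 and 142 counts and was called lower, at 0.352 times (0.265 to 0.463). Atp5c1, the central stalk that turns within the head, had 187, 42, 51 and 103 counts and was at 0.563 times (0.395 to 0.801). All 3 were highest in counts in pro-B and lowest in pre-B or immature B. Their sum went from 1195 CPM in pro-B to 605 CPM in mature B, or 0.506 times (0.435 to 0.590), while the other complex V subunits together were at 0.702 times (0.564 to 0.873). Atp5d, a small subunit of the same stalk, was not lower: it had 28, 20, 14 and 28 counts, at 1.02 times in mature B against pro-B (0.452 to 2.31).

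Among the called genes the 3 largest differences below pro-B were in small or membrane-bound subunits. Ndufa4, a small subunit found with complex IV, is named for complex I and was counted there by its symbol. Ndufa4 had 30, 19, 18 and 8 counts, and its CPM was 3.67-fold lower in mature B (1.17 to 15.2). Ndufab1, the mitochondrial acyl carrier protein that is also a complex I subunit, had 26, 22, 10 and 8 counts and was 3.18-fold lower (0.983 to 13.4), an interval that takes in 1. Sdhd, a membrane anchor of complex II, had 67, 13, 3 and 21 counts and was 3.12-fold lower (1.61 to 7.55). Cox8a, Ndufs8 and Atp5j2 were also called lower, between 2.52-fold and 2.68-fold. Atp5md, a small membrane subunit of ATP synthase, went the other way: it had 14.3, 10.2, 14.4 and 53.0 counts and its CPM was 3.78-fold higher in mature B (1.67 to 10.7).

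The nuclear sum was lower in mature B than in pro-B for all 5 complexes, though not with equal certainty. The CPM ratio was 0.737 (0.635 to 0.856) for the 38 complex I subunits, 0.662 (0.467 to 0.951) for the 4 of complex II, 0.798 (0.608 to 1.03) for the 8 of complex III, 0.651 (0.509 to 0.840) for the 16 of complex IV and 0.562 (0.497 to 0.637) for the 18 of complex V. The interval for complex III takes in 1. For the mitochondrial partners the ratios were 1.18 (1.13 to 1.22) in complex I, 1.26 (1.12 to 1.41) in complex III, 1.13 (1.09 to 1.17) in complex IV and 1.11 (1.01 to 1.22) in complex V. All 4 complexes of mixed origin thus had higher mitochondrial and lower nuclear CPM in mature B. For scale, the cytosolic ribosomal protein genes together were at 1.39 times in mature B (1.35 to 1.42) and the proteasome subunits at 0.633 times (0.579 to 0.692), so a lower nuclear sum was not particular to the chain.

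**Figure D2:**
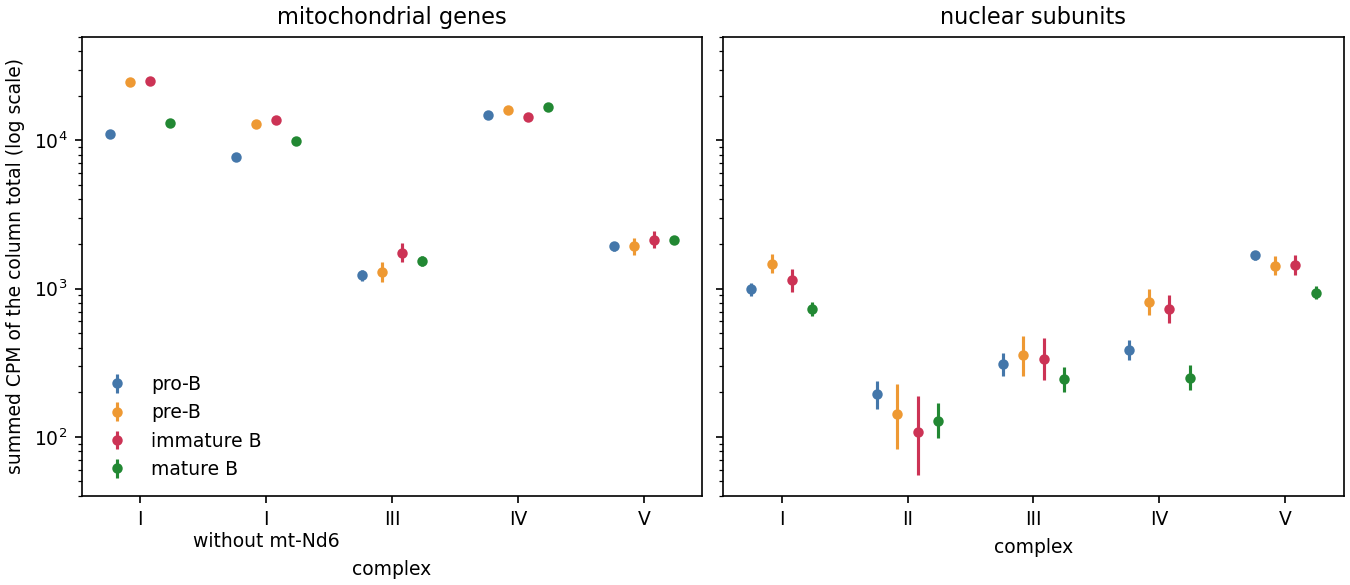
Summed CPM of the mitochondrial genes (left) and nuclear subunits (right) of each complex in the 4 libraries, on a log axis. Points are single libraries with 95% intervals for counting error. Nuclear complex IV stands higher in pre-B and immature B (817 and 731 CPM) than in pro-B and mature B (386 and 251 CPM), and nuclear complex V is lowest in mature B (941 CPM).

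Promoter windows from RefSeq were searched for the motifs of factors known for nuclear respiratory genes, with 250 bases before and 50 after each start in build GRCm38.p6. Of the 84 nuclear subunits, 68 matched a window by symbol, with 73 windows in all. NRF1, a factor named for this role, was searched by its core motif of 10 letters on both strands, and 18 of 73 windows held it (24.7%) against 4.603% of all 32851 windows. For YY1, searched as AAGATGGC, the shares were 13.7% and 2.75%. For GABPA, searched as CCGGAAGT, they were 6.85% and 3.89%, and for the estrogen-related receptor ERRa, searched as TCAAGGTCA, 2.74% and 0.423%. None of these motifs contains another. No binding was measured in these libraries, and a match only describes the sequence. Matches in other named genes, among them Atp5g3, Sdha, Uqcrc1, Ndufs3, Ndufa9 and Ndufs7, are not shown. Windows of 30 bases are shown for some genes named in the results, read along the gene, with the matched bases in capitals:
Atp5c1, NRF1, chr2:10080430-10080459, minus strand: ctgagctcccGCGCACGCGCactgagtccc
Sdhd, NRF1, chr9:50603909-50603938, minus strand: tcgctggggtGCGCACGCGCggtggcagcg
Sdhd, ERRa, chr9:50603800-50603829, minus strand: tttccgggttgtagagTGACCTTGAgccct
Atp5g2, NRF1, chr15:102671070-102671099, minus strand: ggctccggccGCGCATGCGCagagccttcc
Ndufa6, NRF1, chr15:82354249-82354278, minus strand: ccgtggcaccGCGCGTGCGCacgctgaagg
Cox8a, GABPA, chr19:7217604-7217633, minus strand: atttccgaaatACTTCCGGctcgggcgtcc
Atp5j2, YY1, chr5:145191500-145191529, minus strand: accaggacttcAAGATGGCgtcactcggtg
Ndufs4, YY1, chr13:114388045-114388074, minus strand: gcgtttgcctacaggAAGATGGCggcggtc
The genes printed here were chosen after their values were seen, so no pattern is read from them. In CPM, Atp5c1 and Sdhd stood in pre-B at 0.811 and 0.701 times their pro-B level. Atp5g2 was called lower there, while Cox8a, Atp5j2, Ndufa6 and Ndufs4 were called higher.

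Between pro-B and pre-B the direction of the nuclear sum depended on the scale. In counts the nuclear subunits were 3.04-fold lower in pre-B and in FPKM 2.68-fold lower, while the mRNA total was 3.61-fold lower, so in CPM they were at 1.19 times (1.07 to 1.32). Over all 5067 genes the median log2 ratio was -0.37 in CPM and -2.16 in FPKM, and for the 31 passing nuclear genes it was 0.68 in CPM and -1.45 in FPKM. On either scale their median lay above that of all genes. In CPM 11 of the 31 were called higher, against 16.1% of all genes, and 1 was called lower, against 30.6%. Some of the 11, among them Ndufaf7, Ndufs4, Ndufab1 and Ndufa4, were under 40 CPM in both pro-B and mature B. They reached the level through pre-B and immature B, so the number of calls describes these values and lends no weight to a difference.

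Cox7c, a small subunit of complex IV, had the largest CPM ratio of the 11. It had 53 counts in pro-B, 64 in pre-B, 75.6 in immature B and 38 in mature B. Thus it was slightly higher in pre-B even in counts, where no interval was computed, and in CPM it was 4.36-fold higher (2.57 to 7.77). Cox8a, another small subunit of that complex, had 67, 46, 31 and 25 counts, which was 2.48-fold higher in CPM (1.37 to 4.27) but lower in counts and FPKM. The whole nuclear part of complex IV was at 2.12 times (1.63 to 2.74) in CPM and 1.70-fold lower in counts. In contrast, the nuclear part of complex V was at 0.855 times (0.721 to 1.01) in CPM and its 3 large F1 subunits at 0.704 times (0.563 to 0.873), which was lower on every scale. Cox4i1, the largest nuclear subunit of complex IV, did not follow Cox7c: it had 59, 15, 12 and 68 counts, at 0.919 times in CPM (0.382 to 2.15).

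Complex I lay between these. Its nuclear subunits together were at 1.49 times in pre-B in CPM (1.25 to 1.78). Ndufs4, an accessory subunit needed for a stable enzyme, had 16, 17, 15 and 14 counts and was 3.84-fold higher in CPM (1.18 to 11.0). The complex I assembly factor Ndufaf7 had 19.1, 21, 10 and 11 counts and was 3.98-fold higher (1.35 to 9.67). Ndufa6, the nuclear complex I subunit with the highest mean FPKM (9.04), had 32, 31, 16 and 31 counts and was 3.50-fold higher in CPM (1.69 to 7.72). For these 3 genes the pre-B and pro-B counts were nearly equal, and the difference in CPM is that of the column totals.

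Atp5g2 was the single nuclear gene called lower in pre-B. It encodes a form of the membrane ring subunit c and had 45 counts in pro-B, 2.51 in pre-B, 26.4 in immature B and 25.5 in mature B, or 4.96-fold lower in CPM (0.984 to 251). The interval takes in 1. The other genes for the same protein differed from it: Atp5g3 had 55, 12, 12 and 30 counts, at 0.788 times in CPM in pre-B against pro-B (0.262 to 1.91), and Atp5g1 had 9.01, 8, 5 and 8. The 3 genes make the same mature protein and their counts could be split between related sequences.

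Pre-B and immature B had like totals and differed less. The nuclear subunits were at 0.892 times in immature B in CPM (0.782 to 1.02) and the mitochondrial genes at 0.989 times (0.952 to 1.03), and both intervals take in 1. Of the 31 nuclear genes 7 were called lower, against 15.7% of all genes, and 1 higher, against 16.3%. Atp5g2 was the one called higher, at 11.3-fold (2.099 to 594). Those furthest below were Ndufa9, a complex I subunit at the joint of its arms, with 14 counts in pre-B and 2 in immature B, Sdhd with 13 and 3, and Ndufs8, a core iron-sulfur subunit of complex I, with 29 and 10. Their CPM ratios were 0.154 (0.00341 to 1.20), 0.248 (0.0354 to 2.004) and 0.371 (0.108 to 1.13), all with intervals that take in 1.

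From immature B to mature B the nuclear sum was again read in opposite ways by the scales. The nuclear subunits were at 0.609 times in CPM (0.542 to 0.684), but at 2.31 times in counts and 1.963 times in FPKM, while the mRNA total was at 3.8003 times. Of the 31 genes 11 were called lower in CPM, against 19.4% of all genes, and 2 higher, against 26.9%. Ndufaf7, Ndufs4, Ndufab1 and Ndufa4 were among the 11, having reached 40 CPM through pre-B and immature B. Here too the number of calls lends no weight to a difference. The medians below are over all 31 genes. Their median log2 ratio was -0.70 in CPM and 1.04 in FPKM, beside 0.23 and 1.999 for all genes, so on both scales they lay below. Ndufa4 was 8.55-fold lower in CPM (2.39 to 38.0), Cox7c 7.56-fold lower (4.27 to 14.0) and Ndufab1 4.75-fold lower (1.02 to 23.9). In counts these 3 went from 18 to 8, from 75.6 to 38 and from 10 to 8, with no interval computed on that scale. Ndufa9 was higher at 4.9996-fold (0.795 to 208), and Ndufs1, the largest complex I core subunit, with 57.1, 11, 6 and 46 counts, at 2.02-fold (0.610 to 10.5). Nuclear complex IV had the lowest ratio of the complexes, at 0.343 (0.255 to 0.464).

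**Figure D3:**
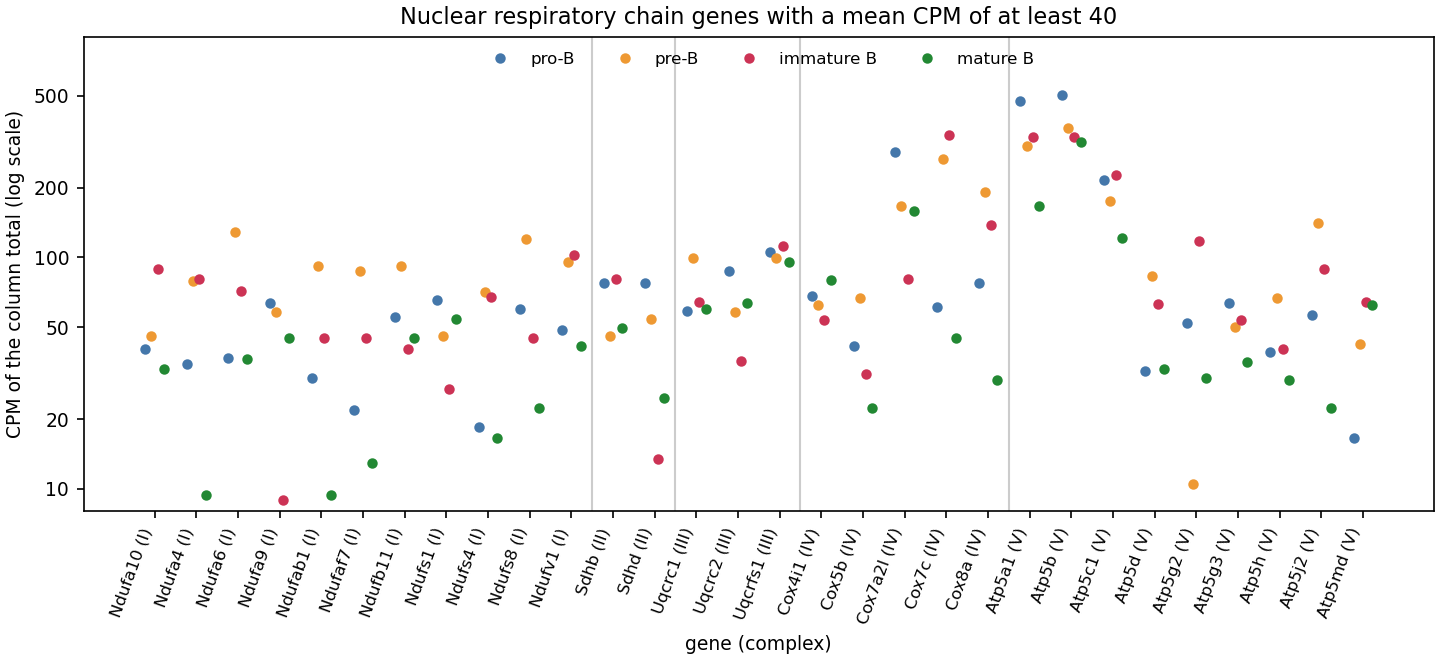
CPM of 30 of the 31 nuclear genes with a mean of at least 40 CPM in the 4 libraries, on a log axis, ordered by complex (in parentheses); each point is 1 library. Cox7c and Cox8a stand highest in pre-B and immature B, Atp5a1 and Atp5b in pro-B, and Cox4i1 alone is highest in mature B.

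The remaining core subunits were thinly counted. In complex II, Sdha, the flavoprotein subunit that oxidizes succinate, had 19.3 counts in pro-B, 38.1 in mature B and 0 in pre-B and immature B, where the floor of 3 counts used here amounts to 12.5 and 13.4 CPM, a limit that would be higher if each read pair was counted as 2. Sdhb, the iron-sulfur subunit and the one of highest mean FPKM in complex II (5.65), had 67, 11, 18 and 42 counts, and Sdhc, the second anchor, had 15, 10, 3 and 8. The complex I core subunits Ndufv1 and Ndufv2 had 42, 23, 23 and 35 and 39, 8, 6 and 31 counts. Ndufs3 had 9.93, 0, 0 and 11.2 counts and Ndufs7 had 15, 8, 1 and 24. These low counts in pre-B and immature B leave no order among the stages beyond counting error for Ndufs3 and Ndufs7.

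In complex III the Rieske iron-sulfur protein Uqcrfs1, its nuclear subunit of highest mean FPKM (7.55), had 92, 24, 25 and 81 counts. Its CPM was 106, 99.9, 112 and 95.4, so its counts followed the mRNA totals closely. The core proteins Uqcrc1 and Uqcrc2 had 50.8, 24, 14.4 and 51 and 76, 14, 8 and 54 counts. In mature B against pro-B their CPM ratios were 1.03 (0.590 to 1.92) and 0.726 (0.426 to 1.22), both with intervals that take in 1.

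Paired tissue forms of complex IV split cleanly. Cox4i2, Cox6b2, Cox7a1, Cox7b2, Cox8b and Cox8c, forms known from lung, testis or muscle and heart, were at 0 in all 4 libraries. Of their common partners, Cox6b1 had 27, 8, 6 and 16 counts and Cox7a2 had 17, 12, 5 and 7, beside Cox4i1 and Cox8a above. Cox7a2l, which helps to join complexes III and IV into supercomplexes, had 247, 40, 18 and 135 counts. In CPM Cox7a2l went from 285 in pro-B to 167, 80.5 and 159, so it was lowest in immature B, where Cox7c was highest. Ndufa4l2, Ndufaf2, Ndufaf3, Atp5pb and the second Atp5o row were also at 0 throughout, and the assembly factors Ndufaf4, Ndufaf5, Ndufaf6, Ndufaf8 and Sdhaf4 had at most 6 counts in any library.

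The mitochondrial genes were far more abundant. mt-Co1, the catalytic subunit of complex IV, had 9848 counts in pro-B, 2905 in pre-B, 2416 in immature B and 11278 in mature B, and by count, which grows with transcript length, ranked 1 among the genes of the mRNA table in pro-B and mature B, 4 in pre-B and 5 in immature B. Per transcript length, the median FPKM in pro-B was 541 for the 3 mitochondrial and 3.49 for the 16 nuclear subunits of complex IV. In the same library it was 205 and 4.30 in complex I, 172 and 6.58 in complex III, and 230 and 11.9 in complex V. The ratio of summed counts differed widely by complex: in pro-B there were 38.3 mitochondrial counts per nuclear subunit count in complex IV, 11.2 in complex I, 3.99 in complex III and 1.15 in complex V. In mature B these were 66.5, 17.9, 6.29 and 2.26, each above its pro-B value. In complex IV the ratio dropped to 19.6 in both pre-B and immature B, where Cox7c and Cox8a were high relative to the total.

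Away from mt-Nd6 the mitochondrial genes kept close to each other. In pre-B, mt-Nd1, mt-Nd2, mt-Co1, mt-Co2, mt-Atp6, mt-Co3 and mt-Cytb had between 0.246 and 0.340 times their pro-B counts, and the mRNA total was at 0.277 times. In immature B they had between 0.245 and 0.366 times. Together with mt-Atp8 and relative to the total, these genes were at 1.08 times in pre-B against pro-B (1.04 to 1.13), 0.958 times in immature B against pre-B (0.906 to 1.01), 1.13 times in mature B against immature B (1.08 to 1.18) and 1.17 times in mature B against pro-B (1.14 to 1.20).

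mt-Nd6, a complex I subunit, had 2874 counts in pro-B, 2798 in pre-B, 2576 in immature B and 2692 in mature B. The highest was 1.12 times the lowest, while the median over the 5067 genes was 7.68 times and the next flattest mitochondrial gene stood at 2.08 times. Counting mt-Nd6 itself, 3 of the 5067 genes (0.0592%) were as flat or flatter. In FPKM it was 1019, 938, 944 and 981. The other 12 mitochondrial genes together had 22311, 7743, 7127 and 25682 counts. The share of mt-Nd6 in the mitochondrial counts thus went from 11.4% in pro-B to 26.5% in pre-B and immature B and 9.49% in mature B.

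On one side of mt-Nd6 on the mitochondrial genome, mt-Nd5 and mt-Nd4 lay between it and the distant genes in pre-B. On its other side mt-Cytb did not. mt-Nd5, the neighbour on the other strand and a proton-pumping subunit of complex I, had 2862, 1714, 1640 and 3419 counts, and in pre-B it had 0.599 times its pro-B count (0.550 to 0.652). mt-Nd4, the next gene back and another pump subunit, had 1532, 614, 675 and 1835 counts, at 0.401 times (0.350 to 0.458). On the far side mt-Cytb, the mitochondrial subunit of complex III, had 1069, 312, 391 and 1314 counts and was at 0.292 times (0.243 to 0.350). The pre-B ratio thus went down from mt-Nd6 over mt-Nd5 to mt-Nd4, and mt-Cytb was no higher than the distant genes. mt-Nd3 had 50.3, 67.0, 51.2 and 32.2 counts and mt-Nd4l had 54.9, 6.56, 0.19 and 14.2. In pre-B they were at 1.33 times (0.761 to 2.32) and 0.119 times (0.0216 to 0.361), one above and one below mt-Nd4, so the order does not carry on past mt-Nd4.

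The counts of mt-Nd3, mt-Nd4l, mt-Nd4, mt-Nd5 and mt-Nd6 were not whole numbers in any of the 4 libraries, whereas among the other 8 genes a single value, that of mt-Co1 in pro-B, was not whole. A fractional count may come from reads divided between transcripts, though no source used here says how the counts were made. Which transcripts would share the reads is not shown. The level of each of these 5 genes is therefore uncertain, and whether such a division differed between the libraries was not tested. Of the 11 mitochondrial genes that reached 40 CPM, 3 were called higher in pre-B than in pro-B, against 16.1% of all genes. These were mt-Nd3, mt-Nd5 and mt-Nd6, all with fractional counts, and in counts they stood in pre-B at 1.33, 0.599 and 0.973 times pro-B. Without mt-Nd6 the mitochondrial part of complex I was at 1.67 times in pre-B against pro-B (1.57 to 1.77) in CPM, beside 2.22 times (2.12 to 2.32) with it, while in counts it was 2.17-fold lower without it and 1.63-fold lower with it.

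**Figure D4:**
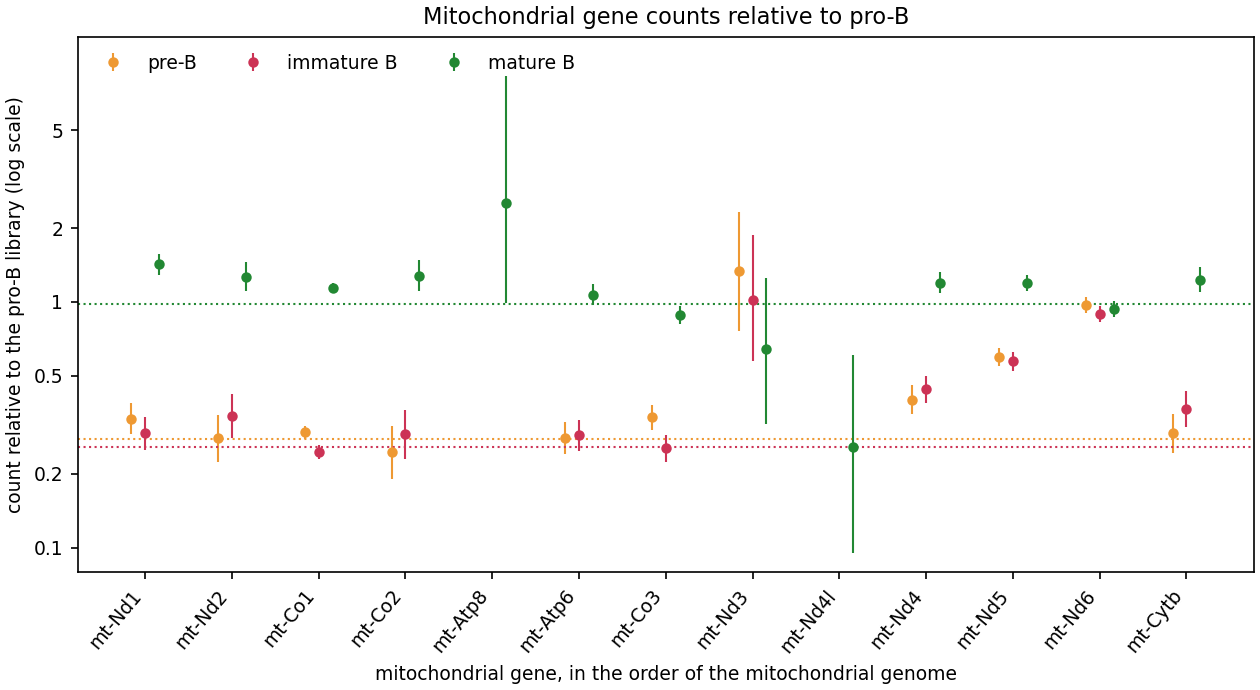
Count of each mitochondrial gene in pre-B, immature B and mature B relative to pro-B, on a log axis, with genes in the order of the mitochondrial genome; bars are 95% intervals for counting error, dotted lines are the mRNA totals relative to pro-B, and points under 10 counts are left out. In pre-B and immature B the ratio climbs from mt-Nd4 through mt-Nd5 to mt-Nd6 (0.973 and 0.896), while most other genes lie near the dotted lines.

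The genes of complex V and the other subunits of complex IV complete the mitochondrial set. mt-Atp6, the proton channel of ATP synthase, had 1658, 463, 476 and 1777 counts. mt-Atp8, a short gene that overlaps it, had 13, 2, 3 and 33. mt-Co2, which takes electrons from cytochrome c, had 667, 164, 194 and 854 counts, and mt-Co3 had 2307, 784, 586 and 2043. mt-Co3 was the one gene outside mt-Nd3, mt-Nd4l and mt-Nd6 with fewer counts in mature B than in pro-B, at 0.886 times (0.813 to 0.964). Of the 11 genes that reached 40 CPM, 2 were called lower in mature B than in immature B in CPM, against 19.4% of all genes, and 0 were called in mature B against pro-B. mt-Nd1 had 1504, 503, 440 and 2137 counts and mt-Nd2 had 745, 208, 255 and 945, at 1.42 times (1.29 to 1.56) and 1.27 times (1.11 to 1.46) in mature B against pro-B.

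Genes that make and read mitochondrial RNA were thinly counted as well. Of 43 on the list, 12 reached 40 CPM, of which 6 were called higher and 1 lower in pre-B against pro-B, 0 and 1 in immature B against pre-B, 3 and 7 in mature B against immature B, and 1 and 4 in mature B against pro-B. The shares over all genes, higher and lower, were 16.1% and 30.6%, 16.3% and 15.7%, 26.9% and 19.4%, and 10.5% and 14.1% in the same order. Gfm2, a factor that recycles mitochondrial ribosomes, had 20.2, 42.4, 51.5 and 49.0 counts, at 7.60-fold higher CPM in pre-B than in pro-B. Ptcd1, which binds mitochondrial leucine tRNAs, had 14.3, 23.5, 12.8 and 4.76, at 5.93-fold higher in pre-B and 10.2-fold lower in mature B than in immature B. Twnk, the mitochondrial DNA helicase, had 44.7, 31.2, 20.9 and 15.1 counts and was 2.90-fold lower in mature B than in pro-B. Fastk, of a family that processes mitochondrial RNA, had 25.1, 22.5, 3 and 27.6. Lrpprc, which stabilizes the mitochondrial mRNAs, had 100, 11, 6 and 71 counts, and its pre-B CPM was 2.52-fold below that of pro-B. Its partner Slirp did not follow it, with 42.5, 67.1, 50.5 and 71.4 counts. Tfam, which packs mitochondrial DNA and starts its transcription, had 46, 8, 5 and 78 counts, at 1.73-fold higher CPM in mature B than in pro-B and so not called. Polrmt, the mitochondrial RNA polymerase, had 32, 6, 8 and 39 counts and did not reach 40 CPM.

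Chain genes that carry other names gave few counts. Of 44 subunits, electron carriers and assembly factors, 7 reached 40 CPM, with 4 called higher and 0 lower in pre-B against pro-B, 0 and 2 in immature B against pre-B, 0 and 3 in mature B against immature B, and 0 and 1 in mature B against pro-B. The same shares over all genes apply, the first pair being 16.1% and 30.6%. Cyc1, the cytochrome c1 of complex III, had 36, 31, 30 and 36 counts, at 3.11-fold higher CPM in pre-B. Cox15, which makes the heme a of complex IV, had 42, 79, 45 and 31 counts, so it was higher in pre-B in counts as well as in CPM (6.80-fold). Cox7c also had more counts in pre-B than in pro-B, by a smaller margin (64 and 53). Cox14, an assembly factor of complex IV, had 27.9, 22, 10.02 and 39 counts, and Etfa, of the flavoprotein that passes electrons from fatty acids to the chain, had 64, 13, 6 and 36. Oxa1l, which inserts subunits into the inner membrane, had 59, 19, 9 and 14 counts and was 4.12-fold lower in mature B than in pro-B.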

How the data were processed

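The authors pooled sorted cells, depleted rRNA, made strand-specific paired-end libraries, removed remaining rRNA reads with Bowtie2, aligned with HISAT2 and quantified with StringTie. The submitters' processing notes also name Bowtie 0.12.2 and build mm9 without tying them to a table, and no source used here gives the build of the mRNA table. From these alignments the authors deposited the estimated counts and FPKM per gene or noncoding transcript, and whole counts of back-spliced reads per circRNA. The members and gene lists were chosen with earlier results of these data known. CPM is the count over the mRNA column total (223495 to 867920). A gene was called where its mean CPM was at least 40 and its CPM differed at least 2-fold, with a count of 0 set to 3 and no fold where both counts were 3 or fewer. Of the whole counts from 1 to 20, between 76.0% and 79.0% were even. Exact (Clopper-Pearson) 95% intervals were therefore computed on halved counts, a choice made after seeing the data, and cover counting error only.

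Named were all mitochondrial genes, the 3 called nuclear genes with the largest rise and fall in each comparison, the nuclear subunit of highest mean FPKM per complex, core subunits, complex II, paired isoforms, and from each other list 2 called genes each way with Tfam and Polrmt. Atp5j2, Atp5d, Atp5g1, Atp5g3, Slirp, the printed promoters and the genes listed at or near 0 were added after their values were seen. Alternatives used edgeR 4.0.16 TMM and DESeq2 1.42.0 size factors on rounded counts. Scripts ran in Python 3.11.15 and were tested on simulated data. miRNA values were not used here, and 1 nuclear gene is counted in the sums but not reported here.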

Additional observations from a re-analysis of the deposited data

Results flagged for a closer look

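Outside the mRNA table, RNA from the same genes was found in the other tables, with no control library to set it against. The circRNA table held 3 circles antisense to members, from back-spliced reads. The circle antisense to Sdha had 4 reads in mature B and that antisense to mt-Nd4 had 4 in pro-B, both above the floor of 3. A circle antisense to mt-Nd5 had 2 reads in mature B, below that floor. All 3 were at 0 in the other libraries, and counts this low do not set the libraries apart.

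The lncRNA table listed 75 noncoding transcripts of 42 member genes, 37 of them above 0 in some library, with 164 counts in pro-B, 67.8 in pre-B, 33.4 in immature B and 116 in mature B. A noncoding transcript of Uqcrc2 had the most, with 34.1 counts in pro-B, 7.44 in pre-B, 1.32 in immature B and 13.1 in mature B. These counts are not part of the sums in the report.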

How the results depend on the processing

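With 1 library per stage every difference is that of 2 libraries, and the low mRNA totals of pre-B and immature B limit the nuclear genes most. No paired analysis was possible because each stage had 1 library and none could be left out. Of 100 alternative values 53 stayed within the interval of the value reported, or within 1.5 times a reported count, 37 moved and 10 turned direction; apart from scaling and the genes left out, the causes were not tested.

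The scale turned the groups. Over both tables' total the log2 ratios of nuclear subunits and mitochondrial genes were -1.62 and -1.27 in pre-B against pro-B (CPM: 0.25 and 0.60) and 1.14 and 1.48 in mature B against immature B (CPM: -0.72 and -0.38). FPKM sums gave -1.42, -1.14, 0.97 and 1.29 in the same order, and 0.16 for the mitochondrial genes in mature B against pro-B (CPM: 0.20). TMM scaling gave -0.48 and 0.35 in mature B against pro-B for the nuclear and mitochondrial genes and -0.29 for the mitochondrial genes in mature B against immature B. Median-of-ratios scaling gave -0.45 and 0.38 in mature B against pro-B, and 0.43 and 0.78 in pre-B against pro-B. A column total without the mitochondrial genes changed none of these by more than their intervals.

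The log2 mitochondrial to nuclear ratio moved in 2 steps. In pre-B against pro-B it was 0.10 without mt-Nd6, -0.11 without mt-Nd3 to mt-Nd6 and 0.62 without mt-Co1. In mature B against immature B it was 0.59, 0.84 and -0.027 under the same choices.

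Counts of nuclear genes moved with the threshold. No share over all genes was computed at these settings, so the counts below cannot be set against that of other genes. In FPKM the median log2 ratio over all 5067 genes was itself -2.16 in pre-B against pro-B and 1.999 in mature B against immature B. In pre-B against pro-B, 5 were higher at 3-fold, 27 higher and 5 lower with a mean of at least 10 CPM, 30 and 6 with no minimum, and 0 higher and 22 lower in FPKM. In immature B against pre-B, 2 were lower at 3-fold, 9 higher and 17 lower at 10 CPM, 10 and 17 with no minimum, and 3 higher in FPKM. In mature B against immature B, 1 was higher at 3-fold, 5 higher and 30 lower at 10 CPM, 5 and 33 with no minimum, and 17 higher and 1 lower in FPKM. In mature B against pro-B, 3 were lower at 3-fold, 4 higher and 23 lower at 10 CPM, and 10 and 25 with no minimum.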

Other observations

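Over all genes with a mean of at least 40 CPM, the shares called higher and lower were 10.5% and 14.1% in mature B against pro-B, 16.1% and 30.6% in pre-B against pro-B, 16.3% and 15.7% in immature B against pre-B, and 26.9% and 19.4% in mature B against immature B. The citric acid cycle, which feeds electrons to complexes I and II, was partly counted. Of 17 genes 11 reached 40 CPM, with 1 called higher and 4 lower in mature B against pro-B, 0 and 2 in pre-B against pro-B, 2 and 3 in immature B against pre-B, and 1 and 3 in mature B against immature B. Sucla2, a subunit of succinyl-CoA ligase, had 77 counts in pro-B, 2 in pre-B, 12 in immature B and 19 in mature B. Ogdh, of the oxoglutarate dehydrogenase, had 171, 16, 39 and 224. Idh3g, of the NAD-linked isocitrate dehydrogenase, had 95.9, 17.6, 0 and 8.20 and was 11.4-fold lower in CPM in mature B than in pro-B, and Idh2, its NADP-linked relative, had 57, 28, 13 and 20. Dlst, a partner of Ogdh, had 36.3, 18, 5.73 and 109, a CPM 3.07-fold higher in mature B than in pro-B.

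For glycolysis 14 of 21 rows reached 40 CPM, with 1 called higher and 3 lower in mature B against pro-B, 1 and 4 in pre-B against pro-B, 2 and 2 in immature B against pre-B, and 2 and 3 in mature B against immature B. Slc2a1, the main glucose transporter, had 36, 4, 15 and 124 counts and was 3.52-fold higher in CPM in mature B than in pro-B, while Slc2a3 had 73, 8, 10 and 31 and was 2.30-fold lower. The enzyme genes Gpi1 (219, 18, 43 and 219 counts), Tpi1 (51, 33, 12 and 19), Hk2 (42, 19, 6 and 24), Pfkl (67, 11, 7 and 96) and Pgam1 (77, 29, 27 and 46) had no common course. The 4 of 14 lower in pre-B lie near the 30.6% of all genes. Of 27 genes for mitochondrial import, carriers, shape and their regulators, 20 reached 40 CPM, with 0 called higher and 4 lower in pre-B against pro-B, 3 and 2 in immature B against pre-B, 4 and 0 in mature B against immature B, and 1 and 2 in mature B against pro-B. The 4 of 20 lower in pre-B are a smaller share than the 30.6% of all genes. Opa1, which fuses the inner membranes, had 93, 3, 10 and 80 counts, the chaperone Hspd1 had 76.3, 4.03, 10.1 and 56.9, and Dnm1l, which divides mitochondria, had 79, 20, 4 and 65. Vdac3 had 61, 22, 10 and 44 counts and the import pore Tomm40 had 45, 12, 8 and 20. Myc, a transcription factor of growth, had 48, 4, 13 and 190 counts, and Vdac1, the outer membrane channel, had 94, 14, 14 and 38.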
